A study of Mus musculus with 32 samples.

Results

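Bulk RNA-sequencing of the embryonic mouse head was read for 10 genes of the surface ectoderm: the Grainyhead-like genes Grhl1, Grhl2 and Grhl3, the epithelial regulators Trp63 and Esrp1, the surface and junction genes Epcam and Cldn6, and the keratins Krt8, Krt18 and Krt19. They were chosen by name as readers of non-neural ectoderm and of the Grhl closure factors, by a rule that uses no measured value although earlier results of these data were known, and matched by Ensembl gene identifier, so that 10 of the 48576 genes in the files are described here. Forebrain (Fb) and midbrain (Mb) of embryos at E9.5 were profiled, with 16 libraries per tissue and 32 in all. The wild-type (WT) group had 6 libraries per tissue. The exencephalic triple knockouts of Cdh6, Cdh8 and Cdh11 (TKO_Ex) had 4, the exencephalic double knockouts of Cdh8 and Cdh11 (DKO_Ex) had 3, and the double knockouts with a cranial defect but a closed head (DKO_CD) had 3. The labels name the DKO_CD genotype as Cdh6 and Cdh8, whereas the methods of the study describe both double knockouts as Cdh8 and Cdh11. All mice were of a B6C3F1 background, the mutants came from crosses of triple heterozygotes and the WT embryos from WT matings, so that genotype and cross cannot be told apart. The mutant alleles are small CRISPR deletions around the start codons of these type II classic cadherins.

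In neurulation the neural plate bends and its edges fuse along the dorsal midline, and the surface ectoderm that flanks it fuses above it. The paper describes the cranial neural tube at E9.5, the stage sampled, as just closed. Grainyhead-like proteins are transcription factors of surface epithelia, and mice that lack Grhl2 or Grhl3 fail to close the neural tube. Trp63 encodes p63, a transcription factor needed for stratified epithelia, and Esrp1 encodes an RNA-binding protein that sets epithelial splicing. Epcam is a cell-surface glycoprotein and Cldn6 a claudin of early epithelial tight junctions. Krt8 and Krt18 encode the partners of the keratin filament of simple epithelia, and Krt19 a further keratin of such epithelia. Neuroepithelium expresses N-cadherin and type II cadherins rather than E-cadherin, so in a dissected piece of brain these genes are used to read the non-neural epithelia that remain on it.

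On GRCm38, Grhl1 (ENSMUSG00000020656) lies at chr12:24572283-24617391 on the plus strand, and Grhl2 (ENSMUSG00000022286) at chr15:37233036-37363569 on the plus strand. Grhl3 (ENSMUSG00000037188) lies at chr4:135541888-135573630 and Esrp1 (ENSMUSG00000040728) at chr4:11331933-11386783, both on the minus strand. Trp63 (ENSMUSG00000022510) lies at chr16:25683763-25892102, and Epcam (ENSMUSG00000045394) and Cldn6 (ENSMUSG00000023906) share a chromosome, at chr17:87635979-87651129 and chr17:23679249-23682446, all on the plus strand. Krt19 (ENSMUSG00000020911) lies at chr11:100140810-100148665 on the minus strand. Krt8 (ENSMUSG00000049382, chr15:101996698-102004482, minus strand) and Krt18 (ENSMUSG00000023043, chr15:102028180-102032027, plus strand) are neighbours 23.7 kb apart. Grhl2 starts 24.1 Mb and Krt8 88.8 Mb from the mutated Cdh6 on the same chromosome.

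The start-site windows of the 4 members with the highest WT levels in Fb are shown, since the results turn on these genes. Each runs from 250 bases before to 50 bases after the RefSeq start on GRCm38.p6. Capitals mark a match, on either strand, to the GC box GGGCGG, to the AP-2 type motif GCCNNNGGC or to the Grainyhead-like motif AACCGGTT. The windows lie at chr17:87635729-87636028 (Epcam, plus strand), chr17:23679115-23679414 (Cldn6, plus strand), chr15:102004293-102004592 (Krt8, minus strand) and chr15:102027966-102028265 (Krt18, plus strand).
Epcam: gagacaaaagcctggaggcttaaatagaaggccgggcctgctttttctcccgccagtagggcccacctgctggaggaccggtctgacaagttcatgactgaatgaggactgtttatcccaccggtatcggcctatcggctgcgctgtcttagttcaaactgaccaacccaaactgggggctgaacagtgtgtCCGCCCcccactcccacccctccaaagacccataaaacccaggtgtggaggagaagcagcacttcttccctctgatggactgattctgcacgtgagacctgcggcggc
Cldn6: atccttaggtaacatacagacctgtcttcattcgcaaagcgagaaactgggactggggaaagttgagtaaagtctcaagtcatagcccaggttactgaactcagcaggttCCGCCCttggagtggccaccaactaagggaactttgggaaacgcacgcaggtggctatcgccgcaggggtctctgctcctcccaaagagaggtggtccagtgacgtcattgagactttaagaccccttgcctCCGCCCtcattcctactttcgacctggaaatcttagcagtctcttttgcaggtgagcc
Krt8: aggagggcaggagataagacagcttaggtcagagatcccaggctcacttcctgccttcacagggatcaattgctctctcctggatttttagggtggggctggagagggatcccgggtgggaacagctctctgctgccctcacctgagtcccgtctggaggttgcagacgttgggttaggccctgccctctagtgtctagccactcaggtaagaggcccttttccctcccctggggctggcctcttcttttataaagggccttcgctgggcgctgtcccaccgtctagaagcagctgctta
Krt18: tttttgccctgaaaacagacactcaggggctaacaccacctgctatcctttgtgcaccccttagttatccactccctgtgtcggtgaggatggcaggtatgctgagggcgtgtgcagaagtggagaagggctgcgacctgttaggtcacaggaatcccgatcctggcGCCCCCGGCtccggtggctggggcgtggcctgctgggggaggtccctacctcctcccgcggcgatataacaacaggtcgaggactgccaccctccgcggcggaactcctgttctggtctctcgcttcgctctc
The Epcam window held 1 GC box, 58 bases before the start, and the Cldn6 window held 2, at 140 and 8 bases before it. The Krt18 window held 1 AP-2 type match, 83 bases before the start, and the Krt8 window held none of the motifs. Of the 7 windows that RefSeq gave for 6 of the 10 genes, 4 held a GC box, against 35.7% of 32851 windows of the genome, and the AP-2 type motif, in the windows of Krt18 and of Grhl1, was in 16.6% of all windows. The Grainyhead-like motif AACCGGTT, and the same motif with 1 free base, AACCNGTT, were in none of the 7 windows and in 0.146% and 2.09% of all. A match is a description of these letters and not a bound site.

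Levels are given as FPKM, fragments per kilobase of exon scaled to the mapped fragments of the library, as the authors computed them. The steps between low values put the depth at 1960000 to 3250000 fragments per library, so that low levels rest on few fragments. Grhl1 had at most 6 fragments in any library, and Epcam had 12 to 20 in WT Mb and 57 to 107 in WT Fb. The Mb gene En1 was at most 2.09 FPKM in Fb and at 19.1 to 65.5 FPKM in all Mb libraries but 1, and 4 libraries stood apart. WT Mb replicate 5 was low in En1 (3.57 FPKM), DKO_CD Mb replicate 2 was low in Otx2 (20.2 FPKM, against at least 59.8 FPKM), and the Fb and Mb libraries of TKO_Ex replicate 3 had Cdh6 at the WT level (3.74 and 3.10 FPKM, where the other TKO_Ex libraries had 0.345 to 1.84 FPKM). Cdh6 was at 1.29 to 2.11 FPKM in DKO_CD Mb, within the WT Mb range of 1.04 to 3.55 FPKM, and at 1.72 to 3.43 FPKM in DKO_CD Fb, where WT Fb had 2.04 to 3.997 FPKM. In DKO_Ex it was at 1.86 to 3.12 FPKM in Mb and 3.62 to 4.34 FPKM in Fb. In the 12 DKO files the column heading names the other DKO group than the record that lists the file. The headings were followed, and the results with the records followed, which exchanges DKO_Ex and DKO_CD, are given where they differ. In bulk samples, fewer cells of a type and less RNA per cell cannot be told apart.

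In WT embryos the surface ectoderm genes were higher in Fb than in Mb, apart from Krt19 and Grhl1. The ratio of group means, Fb over Mb, ran from 2.07 (Krt8) to 11.6 (Grhl3) for the others. Cldn6 had the highest level of the 10 in Fb, with 34.7 ± 11.1 FPKM (SD, n = 6), followed by Krt18 and Krt8, then Epcam, Esrp1, Krt19, Grhl2, Grhl3, Trp63 and Grhl1. In Mb the keratins Krt8 (11.5 ± 3.70 FPKM) and Krt18 (11.2 ± 2.31 FPKM) led and did not differ from each other beyond their spread. Cldn6, Krt19 and Epcam came next at 6.01, 4.48 and 2.89 FPKM with overlapping libraries, and Esrp1, Grhl2, Trp63, Grhl1 and Grhl3 had means below 1 FPKM. In Fb, Krt18 (25.4 ± 4.45 FPKM) and Krt8 (23.8 ± 6.21 FPKM) overlapped with each other and with Cldn6, and Esrp1 (5.37 ± 1.62 FPKM) overlapped with Krt19, at a mean of 4.802 FPKM. Epcam overlapped with Krt8, Grhl2 with Grhl3, and Grhl3 with Trp63.

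**Figure D1:**
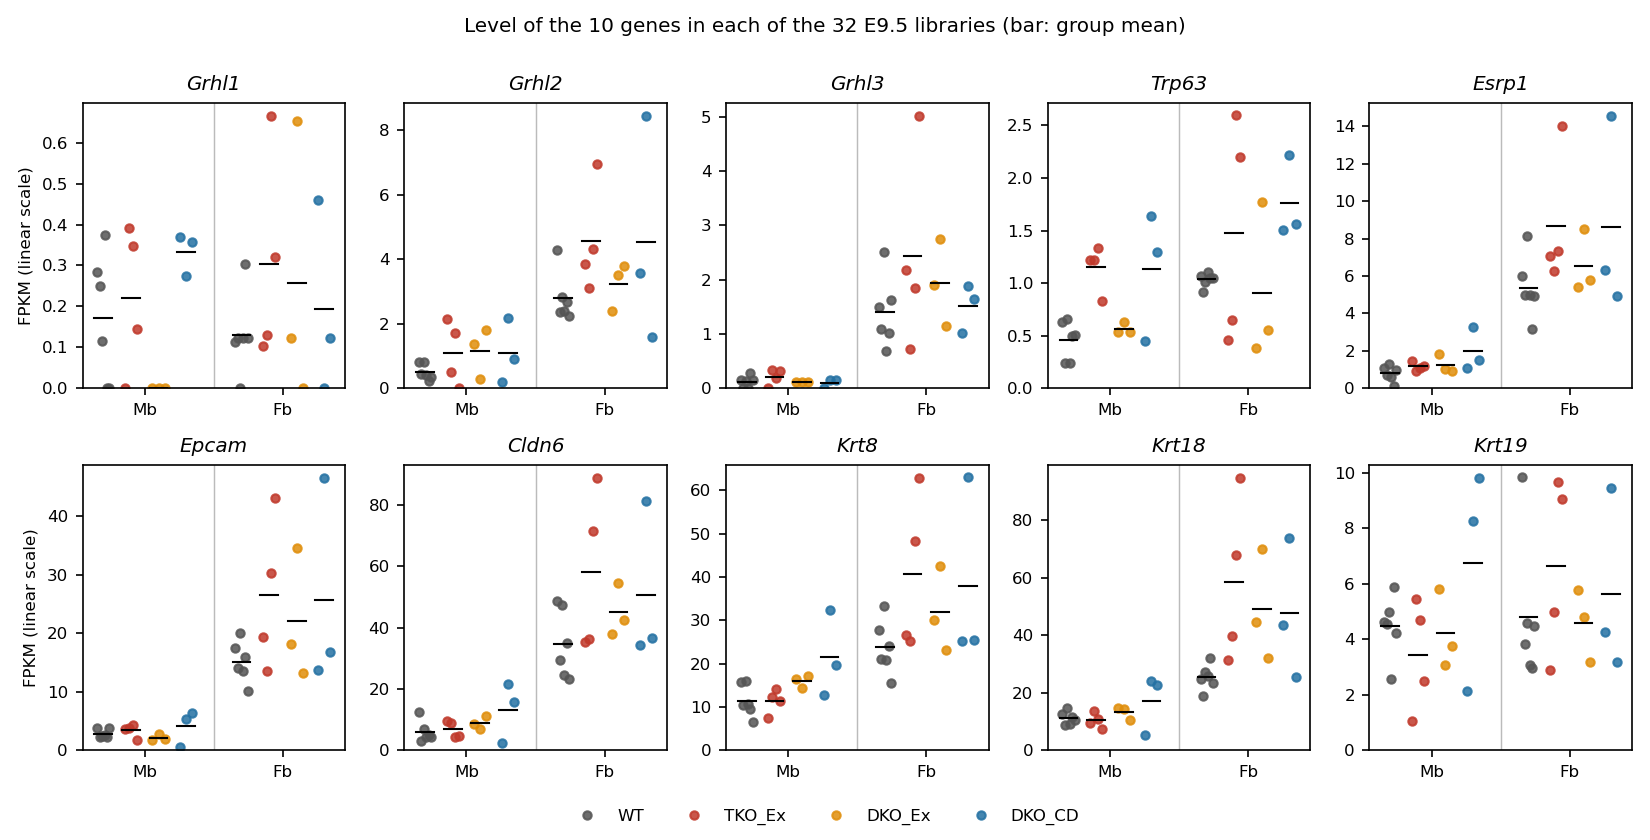
FPKM of each of the 10 genes in every library, by tissue and group, with a line at the group mean. Most genes are higher in Fb than in Mb in all 4 groups, and Grhl1 stays below 0.67 FPKM throughout. In Fb the SD is larger in TKO_Ex than in WT for every gene. In DKO_Ex and DKO_CD it is larger for most genes, but smaller for Grhl2, Krt19 and Cldn6 in DKO_Ex and for Grhl3 in DKO_CD.

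The difference between the WT tissues was tested with limma on log2(FPKM + 1) over 13344 genes that averaged 1 FPKM or more, with the Benjamini-Hochberg adjustment over all of them. Of these genes 8.26% passed an adjusted p of 0.05 in either direction and 3.6% were lower in Mb. Of the 7 surface ectoderm genes that met the filter, 6 were lower in Mb and Krt19 did not pass. Grhl2 and Esrp1 met the filter through their Fb libraries alone, so the count was repeated for all 10 genes with no filter: 8 were lower in Mb, where 2.05% of 22610 genes were, and Grhl1 and Krt19 did not pass. The WT libraries of the tissues did not overlap for 5 of the 7 filtered genes, against 2.23% of all genes tested, and for 7 of all 10 genes with no filter, against 1.53% of 22610.

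Among the transcription factors, Grhl2 had 0.218 FPKM at the lowest, 0.433 at the median and 0.832 at the highest in WT Mb, and 2.24, 2.53 and 4.29 FPKM in WT Fb. Every Fb library was above every Mb library, and Grhl2 was lower in Mb by a log2 difference of -1.32 ± 0.18 (SE, limma, adjusted p = 0.00024). Grhl3 ran from 0 through 0.140 to 0.290 FPKM in WT Mb and from 0.686 through 1.29 to 2.50 FPKM in WT Fb, again with no overlap, and with no filter its log2 difference was -1.07 ± 0.16 (limma, adjusted p = 0.0015). Each Mb value of Grhl3 rested on at most 2 fragments. Trp63 ran from 0.236 through 0.501 to 0.661 FPKM in WT Mb and kept within 0.916 to 1.11 FPKM in WT Fb, with a log2 difference of -0.49 ± 0.10 with no filter (limma, adjusted p = 0.013). Among the members in WT, Trp63 in Fb varied least for its mean, with a coefficient of variation of 6.40%. It rested on 13 to 17 fragments per library there, too few to take this small spread as a steady level. Grhl1 was at 0 to 0.374 FPKM in WT Mb and 0 to 0.304 FPKM in WT Fb, was listed at 0 in 9 of the 32 libraries, and cannot be ordered between tissues at this depth.

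The surface and junction genes had the largest fitted differences between the tissues on the log2(FPKM + 1) scale, while the ratio of group means, Fb over Mb, was higher for Grhl3 (11.6) and Esrp1 (6.68) than for Cldn6 (5.77) and Epcam (5.25). Cldn6 ran from 3.11 through 4.69 to 12.4 FPKM in WT Mb and from 23.2 through 32.2 to 48.6 FPKM in WT Fb, a log2 difference of -2.40 ± 0.27 (limma, adjusted p = 6.8e-05). Epcam ran from 2.27 through 2.48 to 3.87 FPKM in WT Mb and from 10.1 through 15.0 to 20.002 FPKM in WT Fb, a log2 difference of -2.05 ± 0.17 (limma, adjusted p = 2.8e-06). For both genes the lowest Fb library was above the highest Mb library. The splicing regulator Esrp1 ran from 0.106 through 0.845 to 1.30 FPKM in WT Mb and from 3.19 through 4.98 to 8.115 FPKM in WT Fb, a log2 difference of -1.82 ± 0.21 (limma, adjusted p = 8.4e-05). Its WT Mb values rested on 1 to 15 fragments per library. The lowest, on 1 fragment, was in the WT Mb library that was low in En1.

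The keratins differed less. Krt18 was at 8.67, 11.1 and 14.8 FPKM (lowest, median, highest) in WT Mb and 18.7, 25.3 and 32.2 FPKM in WT Fb, with no overlap and a log2 difference of -1.12 ± 0.14 (limma, adjusted p = 0.00018). Krt8 was at 6.45, 10.6 and 15.9 FPKM in WT Mb and 15.5, 22.6 and 33.3 FPKM in WT Fb, where the highest Mb library passed the lowest Fb library, and its log2 difference was -1.01 ± 0.21 (limma, adjusted p = 0.0089). Krt19 was at 2.59, 4.59 and 5.90 FPKM in WT Mb and 2.98, 4.16 and 9.85 FPKM in WT Fb. The tissues overlapped over most of the range of Krt19, with a log2 difference of -0.02 ± 0.24 (limma, adjusted p = 0.98). Among the simple-epithelial keratins, Krt19 therefore had no measured tissue difference where Krt8 and Krt18 had one, and the difference between the genes was not tested.

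The other epithelial genes of a list of 24 gave a like count: of the 18 that met the filter, 12 were lower in WT Mb and none was higher, with a median log2 difference of -1.36 against -0.00 over all genes tested. Those that passed were Cdh1 (E-cadherin), Cldn3, Cldn4, Cldn7, Rab25, Spint1, Spint2, Dsp (desmoplakin), Prss8, St14, Crb3 and Ap1m2. Cdh1 had a log2 difference of -1.50 ± 0.17 (limma, adjusted p = 6.8e-05). Esrp2, the paralog of Esrp1, had -0.61 ± 0.23 (limma, adjusted p = 0.15), and the surface ectoderm regulator Tfap2c had -0.55 ± 0.20 (limma, adjusted p = 0.13). Placode and oral ectoderm genes were also lower in WT Mb, with 6 of 8 called, led by Pitx1 and Dlx5 at -3.53 and -3.27. Of 4 endoderm genes tested, Foxa1 and Foxa2 were higher in Mb and the other 2 had differences below 0 that did not pass. Of 7 cranial mesenchyme genes, 5 were lower in Mb and Col1a1 was higher, at 0.98. Genes high in 1 tissue can meet the filter through it alone. With no filter, 11 of the 24 other epithelial genes (median -0.80) and 6 of 9 placode and oral ectoderm genes were lower in Mb, with none higher, and 1 of 6 endoderm genes was higher. The part of these other cell types in the members' difference was not tested.

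The question put to the mutants was whether the surface ectoderm genes differed from WT where the neural tube had failed to close. No member passed an adjusted p of 0.05 in any of the 6 comparisons of a mutant group with WT, nor under any alternative processing that was run. The comparisons share their WT libraries within a tissue, so their values are given side by side and are not independent. Few genes passed at all: 0.0603% in TKO_Ex Fb, 0.0759% in DKO_Ex Fb, 0.0378% in DKO_CD Fb, 0.0898% in TKO_Ex Mb, 0.0903% in DKO_Ex Mb and 0.0375% in DKO_CD Mb.

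In Fb the mutant means lay above the WT mean for most of the genes. With no filter, the log2 difference from WT was above 0 for 10 of 10 genes in TKO_Ex Fb (median 0.55), for 9 of 10 in DKO_Ex Fb (median 0.28) and for 10 of 10 in DKO_CD Fb (median 0.46). With the filter it was above 0 for 9 of 9, 8 of 8 and 9 of 9 members, against 54.2%, 47.0% and 58.1% of all genes. The members tended to be high or low together in a library, so these signs are not separate observations. Among genes that met the filter, 6 of 9 members had an unadjusted p under 0.05 in TKO_Ex Fb with higher levels in the mutants, where 5.07% of all genes did. The same count was 1 of 8 in DKO_Ex Fb, against 2.79%, and 2 of 9 in DKO_CD Fb, against 5.31%. The 6 of TKO_Ex Fb depended on 1 library: without TKO_Ex Fb replicate 4 the count was 1 and the median log2 difference was 0.35 in place of 0.58. It also moved to 1 or 2 without WT Fb replicate 2, 4 or 6 or without TKO_Ex Fb replicate 3. In DKO_CD Fb it was 0, with a median of 0.09 in place of 0.48, without replicate 2, and in DKO_Ex Fb the median was 0.10 in place of 0.35 without replicate 2. In the other direction, the count was 3 in DKO_CD Fb without replicate 1 or 3, and 3 in DKO_Ex Fb without replicate 3.

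**Figure D2:**
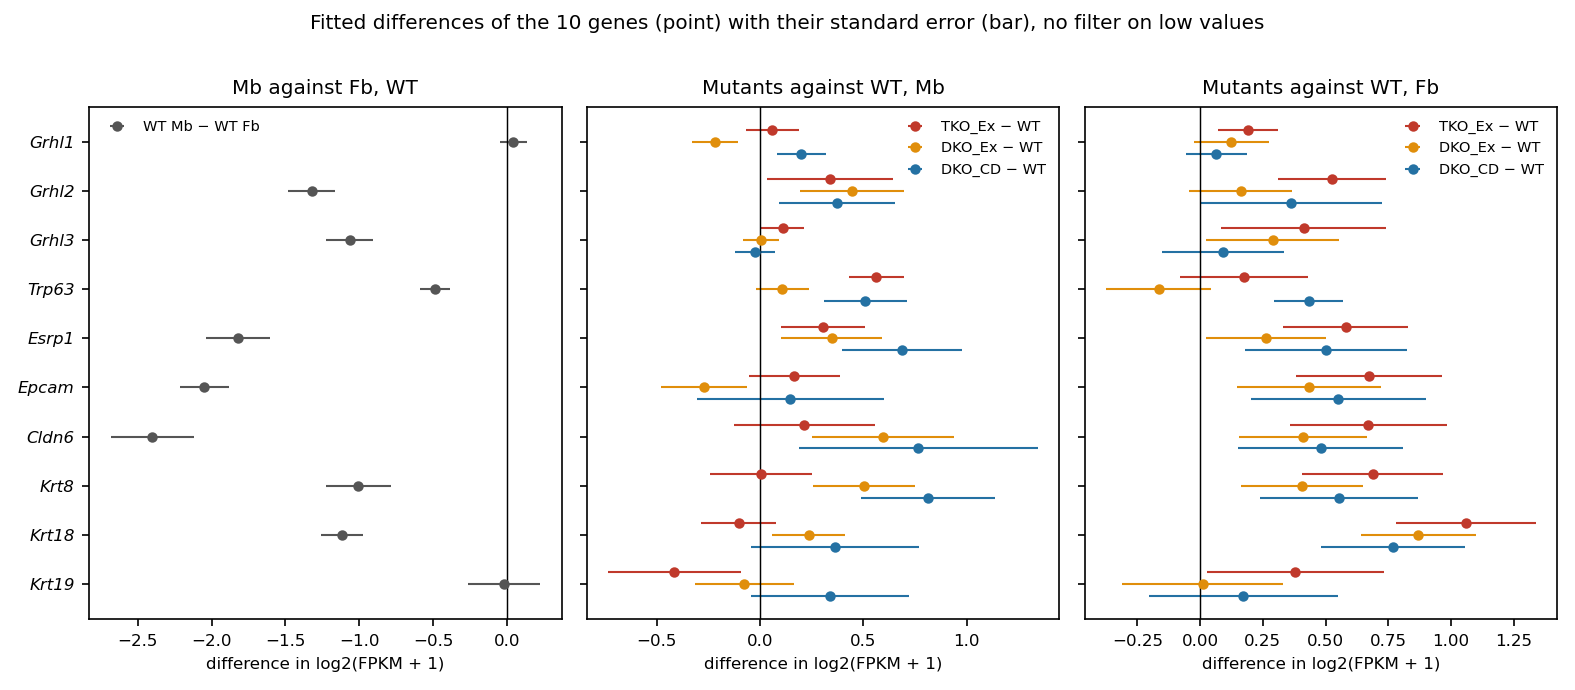
Difference in log2(FPKM + 1) of each gene (point) with its standard error (bar) from limma with no filter, for WT Mb minus WT Fb and for the 3 mutant groups minus WT in Mb and in Fb. In the Fb panel all points but Trp63 in DKO_Ex lie above 0, with Krt18 the highest in each group, and no mutant difference passes an adjusted p of 0.05.

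Krt18 had the largest difference in Fb. It was at 31.3, 39.9, 68.1 and 94.8 FPKM in the 4 TKO_Ex Fb libraries, against 18.7 to 32.2 FPKM in WT. All but TKO_Ex Fb replicate 1 were above every WT library, and the log2 difference was 1.06 ± 0.27 (limma, adjusted p = 0.25, and 0.15 to 0.57 over the alternatives). In DKO_Ex Fb it was at 44.7, 70.1 and 32.3 FPKM, each above the highest WT library (32.2 FPKM, close below replicate 3), with a log2 difference of 0.87 ± 0.22 (limma, adjusted p = 0.37). It was the only member of DKO_Ex Fb whose groups did not overlap, out of 8 tested, where 1.46% of all genes were higher without overlap. In DKO_CD Fb, Krt18 was at 43.6, 73.8 and 25.4 FPKM, with replicate 3 inside the WT range and a log2 difference of 0.77 ± 0.28 (limma, adjusted p = 0.51). Its partner Krt8 was at 26.6, 25.3, 48.4 and 62.7 FPKM in TKO_Ex Fb, so that only replicates 3 and 4 were above the WT range of 15.5 to 33.3 FPKM, with a log2 difference of 0.69 ± 0.27 (limma, adjusted p = 0.50). In DKO_Ex Fb, Krt8 was at 30.1, 42.4 and 23.2 FPKM, and in DKO_CD Fb at 25.3, 63.0 and 25.3 FPKM. Krt19 did not follow this order: 2.90, 5.001, 9.69 and 9.05 FPKM in TKO_Ex Fb were all within the WT range of 2.98 to 9.85 FPKM apart from replicate 1, which was below it. Krt19 was also within that range at 5.77, 4.80 and 3.19 FPKM in DKO_Ex Fb and at 4.27, 9.44 and 3.20 FPKM in DKO_CD Fb.

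Epcam and Cldn6 were above the WT range in the same libraries. Epcam was at 19.4, 13.5, 30.3 and 43.1 FPKM in TKO_Ex Fb, at 18.2, 34.6 and 13.3 FPKM in DKO_Ex Fb and at 13.8, 46.5 and 16.8 FPKM in DKO_CD Fb. Only TKO_Ex replicates 3 and 4, DKO_Ex replicate 2 and DKO_CD replicate 2 were above the WT maximum of 20.002 FPKM. Its log2 difference in TKO_Ex Fb was 0.67 ± 0.28 (limma, adjusted p = 0.53). Cldn6 was at 35.4, 36.4, 71.6 and 88.7 FPKM in TKO_Ex Fb, at 38.0, 54.7 and 42.6 FPKM in DKO_Ex Fb and at 34.3, 81.2 and 36.7 FPKM in DKO_CD Fb. The same 4 libraries were above the WT maximum of 48.6 FPKM, and its log2 difference in TKO_Ex Fb was 0.67 ± 0.30 (limma, adjusted p = 0.57). For Esrp1, at 7.08, 6.26, 7.36 and 14.0 FPKM in TKO_Ex Fb, only replicate 4 was above the WT range, with log2 0.58 ± 0.24 (limma, adjusted p = 0.53). Esrp1 was at 5.41, 8.51 and 5.76 FPKM in DKO_Ex Fb and at 6.33, 14.5 and 4.94 FPKM in DKO_CD Fb. Only replicate 2 of each was above the WT maximum of 8.115 FPKM, in DKO_Ex closely.

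The closure factor Grhl2 was at 3.87, 3.10, 4.31 and 6.96 FPKM in TKO_Ex Fb, against 2.24 to 4.29 FPKM in WT Fb, with a log2 difference of 0.53 ± 0.21 (limma, adjusted p = 0.50). It was at 2.41, 3.50 and 3.78 FPKM in DKO_Ex Fb, inside the WT range, and at 3.56, 8.43 and 1.58 FPKM in DKO_CD Fb, on both sides of it. Grhl3 was at 2.19, 0.718, 1.85 and 5.01 FPKM in TKO_Ex Fb, at 1.90, 2.76 and 1.14 FPKM in DKO_Ex Fb and at 1.02, 1.89 and 1.64 FPKM in DKO_CD Fb. TKO_Ex Fb replicate 4 had the highest Grhl3 level of all libraries. DKO_Ex Fb replicate 2 was also above the WT range of 0.686 to 2.50 FPKM, and the other mutant Fb libraries were inside it. The narrow WT Fb range of Trp63 rests on 13 to 17 fragments per library. Trp63 spread on both sides of that range: 0.460, 0.653, 2.60 and 2.20 FPKM in TKO_Ex Fb and 0.385, 1.77 and 0.551 FPKM in DKO_Ex Fb. In DKO_CD Fb, Trp63 was at 1.51, 2.22 and 1.56 FPKM, each above the WT maximum of 1.11 FPKM, with a log2 difference of 0.43 ± 0.18 (limma, adjusted p = 0.56). It was the only 1 of 9 members there without overlap, where 2.92% of all genes were higher without overlap, and in TKO_Ex Fb none of 9 members was, against 1.42%. With the records followed in place of the headings, these DKO_Ex and DKO_CD values exchange places. Grhl1 was at 0 to 0.664 FPKM over the mutant Fb libraries.

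In Mb the log2 difference from WT, with no filter, was above 0 for 8 of 10 genes in TKO_Ex (median 0.14), for 7 of 10 in DKO_Ex (median 0.17) and for 9 of 10 in DKO_CD (median 0.37). With the filter it was above 0 for 3 of 5, 3 of 5 and 6 of 6 members, against 53.4%, 55.7% and 53.4% of all genes. In DKO_CD Mb, Esrp1 met the filter through the DKO_CD libraries alone, with a group mean of 1.97 FPKM against 0.803 FPKM in WT Mb. Its sign above 0 was therefore favoured by the filter, and the counts out of 6 members in DKO_CD Mb include it. No filtered member had an unadjusted p under 0.05 in TKO_Ex Mb (0 of 5, where 5.18% of all genes were higher) or in DKO_Ex Mb (0 of 5, against 3.53%), and 1 of 6 did in DKO_CD Mb (against 4.32%). The DKO_CD Mb count depended on single libraries: it was 6 of 6 without replicate 1, with a median log2 difference of 0.96 in place of 0.52, and 0 without replicate 2 or 3, with medians of 0.11 and 0.26. Krt8 was at 7.49, 12.3, 14.1 and 11.4 FPKM in TKO_Ex Mb, within the WT range of 6.45 to 15.9 FPKM, at 16.5, 14.5 and 17.2 FPKM in DKO_Ex Mb and at 12.7, 32.4 and 19.7 FPKM in DKO_CD Mb. Krt8 was the gene of DKO_CD Mb with a low unadjusted p, with a log2 difference of 0.81 ± 0.31 (limma, adjusted p = 0.69). Without DKO_CD Mb replicate 2, which was low in Otx2, it was 0.48, and without all the libraries that stood apart it was 0.45. Epcam was at 3.63, 3.78, 4.42 and 1.84 FPKM in TKO_Ex Mb, at 1.83, 2.79 and 1.99 FPKM in DKO_Ex Mb and at 0.588, 5.43 and 6.47 FPKM in DKO_CD Mb, against 2.27 to 3.87 FPKM in WT Mb. DKO_CD Mb replicate 1 was thus the lowest of all libraries in Epcam, and replicates 2 and 3 of the same group were the highest of the Mb libraries. Replicate 1 was also the lowest of DKO_CD Mb in Cldn6, with 2.54, 21.6 and 15.8 FPKM against 3.11 to 12.4 FPKM in WT, and Krt18, with 5.26, 23.97 and 22.7 FPKM against 8.67 to 14.8 FPKM. In TKO_Ex Mb, Krt18 was at 9.41, 13.8, 10.9 and 7.61 FPKM, with 1 library below the WT range and none above it.

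The Grhl and Trp63 levels in Mb rest on few fragments. Grhl2 was at 2.14, 0.499, 1.72 and 0 FPKM in TKO_Ex Mb, at 1.36, 0.275 and 1.80 FPKM in DKO_Ex Mb and at 0.201, 2.18 and 0.910 FPKM in DKO_CD Mb. Libraries of each mutant group lay above and below the WT range of 0.218 to 0.832 FPKM, apart from DKO_Ex Mb, where the lowest was inside it. Grhl3 stayed at or below 0.331 FPKM in all 16 Mb libraries. Trp63 was at 1.22, 1.22, 1.33 and 0.830 FPKM in TKO_Ex Mb, each above the WT maximum of 0.661 FPKM, on 10 to 15 fragments against 3 to 10 in WT. It had too low a mean for the filter, and with no filter its log2 difference was 0.56 ± 0.13 (limma, adjusted p = 0.35). Of the 5 members that met the filter in TKO_Ex Mb, 0 were higher without overlap. The share of all genes without overlap was not computed there. The library with Cdh6 at the WT level, replicate 3, had the highest of the 4 Trp63 values, and the other 3 were above WT as well. In DKO_Ex Mb, Trp63 was at 0.532, 0.629 and 0.531 FPKM, all within the WT range, and in DKO_CD Mb at 0.453, 1.64 and 1.30 FPKM. Esrp1 was at 1.47, 0.942, 1.11 and 1.19 FPKM in TKO_Ex Mb, at 1.81, 1.03 and 0.948 FPKM in DKO_Ex Mb and at 1.09, 3.29 and 1.53 FPKM in DKO_CD Mb, and the groups overlapped the WT range of 0.106 to 1.30 FPKM. Krt19 was at 1.06 to 5.46 FPKM in TKO_Ex Mb, 3.08 to 5.81 FPKM in DKO_Ex Mb, and 2.14, 8.29 and 9.81 FPKM in DKO_CD Mb, where replicates 2 and 3 were above the WT range as for Epcam.

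Whether a mutant group differed from WT by another amount in Mb than in Fb was tested as an interaction, and no member passed. The shares of all genes that passed were 0.0149% for TKO_Ex, 0% for DKO_Ex and 0.00746% for DKO_CD. In DKO_Ex, where limma called 0 of 13349 genes, 518 had an unadjusted p under 0.05. The Mb effect minus the Fb effect of Krt18 was a log2 of -1.16 ± 0.34 in TKO_Ex (limma, adjusted p = 0.65), the farthest from 0 of the members tested there, and -0.64 ± 0.30 in DKO_Ex (limma, adjusted p = 0.9996). In DKO_Ex, Epcam was farther from 0, at -0.70 (limma, adjusted p = 0.9996). In group means, Krt18 in Fb over Mb was 2.26 in WT, 5.61 in TKO_Ex, 3.69 in DKO_Ex and 2.75 in DKO_CD. The corresponding ratio of Epcam was 5.25, 7.77, 10.02 and 6.18, while that of Grhl2 was 5.43, 4.18, 2.82 and 4.13 and that of Esrp1 was 6.68, 7.38, 5.19 and 4.37. The Fb excess thus held in all 4 groups for these genes, and Krt19 had ratios of 1.07, 1.94, 1.09 and 0.836.

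The exencephalic and the closed double knockouts were also set against each other. None of 7 filtered members in Mb and none of 9 in Fb passed an adjusted p of 0.05, where 0.045% and 0.00753% of all genes did, and none had an unadjusted p under 0.05. Their median log2 differences, DKO_Ex minus DKO_CD, were -0.31 in Mb and -0.15 in Fb. They depended on the library: in Mb, 5 of 7 had an unadjusted p under 0.05, with a median of -0.78, without DKO_CD replicate 1, and the median was -0.01 without DKO_CD replicate 2 or 3. In Fb the median was 0.29, with 8 of 9 values above 0, without DKO_CD replicate 2 and 0.03 without DKO_Ex replicate 3. It ran from -0.36 to -0.05 without each of the other libraries. With no filter, Grhl1 was listed at 0 in all 3 DKO_Ex Mb libraries and at 0.370, 0.274 and 0.358 FPKM in DKO_CD Mb, on 2 to 4 fragments each (limma, adjusted p = 0.58).

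Within groups, the 10 genes tended to be high or low together in a library. Each gene's deviation was taken from the mean of its own tissue and group on the log2(FPKM + 1) scale, and the deviations were averaged over the 10 genes. Over the libraries of a group the average spanned 0.45 in WT Fb, 1.11 in TKO_Ex Fb, 0.69 in DKO_Ex Fb and 1.02 in DKO_CD Fb, and 0.46, 0.43, 0.20 and 1.29 in the same groups of Mb. TKO_Ex Fb replicate 4 was the highest of its group for 7 of the 10 genes, DKO_Ex Fb replicate 2 for 8 and DKO_CD Fb replicate 2 for 9. In Mb, DKO_CD replicate 2 was the highest of its group for 7. The spread between groups was not tested.

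**Figure D3:**
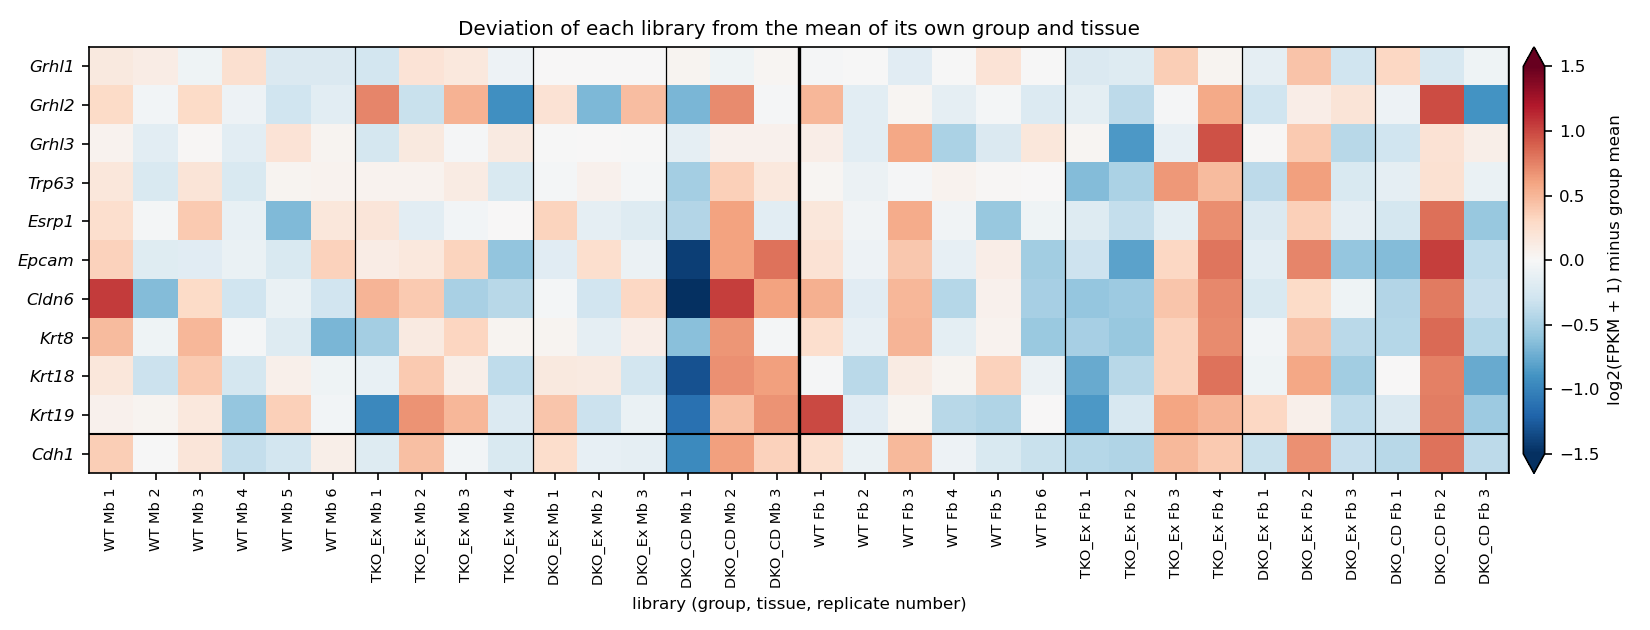
Deviation of each gene from the mean of its tissue and group, log2(FPKM + 1), for all 32 libraries, with Cdh1 as the last row. The genes deviate together in TKO_Ex Fb replicate 4, DKO_Ex Fb replicate 2 and DKO_CD Fb replicate 2 (up) and in DKO_CD Mb replicate 1 (down).

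Of the 45 pairs of members, 43 had a positive correlation of their deviations over the 32 libraries, with a median Pearson r of 0.57, and the median was 0.67 over the 16 Fb libraries and 0.47 over the 16 Mb libraries. Each pair of points shares its library and its depth, so these are descriptions. Against Epcam, Krt18 had an r of 0.83, Cldn6 0.79, Trp63 0.75, Krt8 0.71, Esrp1 0.63, Krt19 0.61, Grhl2 0.60, Grhl3 0.54 and Grhl1 0.14. Without the 2 libraries with the most extreme Epcam, DKO_CD Fb replicate 2 and DKO_CD Mb replicate 1, these were 0.75 for Krt18, 0.69 for Cldn6, 0.72 for Trp63, 0.64 for Krt8, 0.54 for Esrp1, 0.47 for Krt19, 0.47 for Grhl2, 0.58 for Grhl3 and 0.31 for Grhl1. The order changed between tissues: Krt8 had 0.97 in Fb and 0.39 in Mb, and Esrp1 had 0.79 and 0.41, while Krt18 had 0.81 and 0.86. Trp63, though low, had 0.72 in Fb and 0.84 in Mb.

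Among 13433 further genes, the most alike in their deviations to the mean of the members was Cdh1, which encodes E-cadherin, with an r of 0.93 over 32 libraries and 0.93 within each tissue. Next were Dsg2 (0.91), a desmosomal cadherin, Cdh3 (0.86), which encodes P-cadherin, Spint2 (0.84), a protease inhibitor of epithelia, Sostdc1 (0.84), a secreted BMP and Wnt antagonist, Cldn4 (0.84) and Dsp (0.84). Npnt (0.83), Bcam (0.83) and Gm43719 (0.80) completed the 10. The median size of r over all genes was 0.18, and 4 of these 10 were on the list of other epithelial genes fixed for comparison. In that list, 18 of 18 genes had a positive r, with a median of 0.67, and in the placode and oral ectoderm list 8 of 8 had one, with a median of 0.40. The endothelial list had a negative r for each of its 8 genes (median -0.41), with Cdh5 at -0.72, the forebrain list for each of its 5 (median -0.46), and N-cadherin, Cdh2, had -0.65. The mutated genes had -0.00 (Cdh6) and -0.38 (Cdh11). Cdh1 and Cdh3 lie on chromosome 8 with the mutated Cdh11, and Cdh1 starts 3.82 Mb from it.

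**Figure D4:**
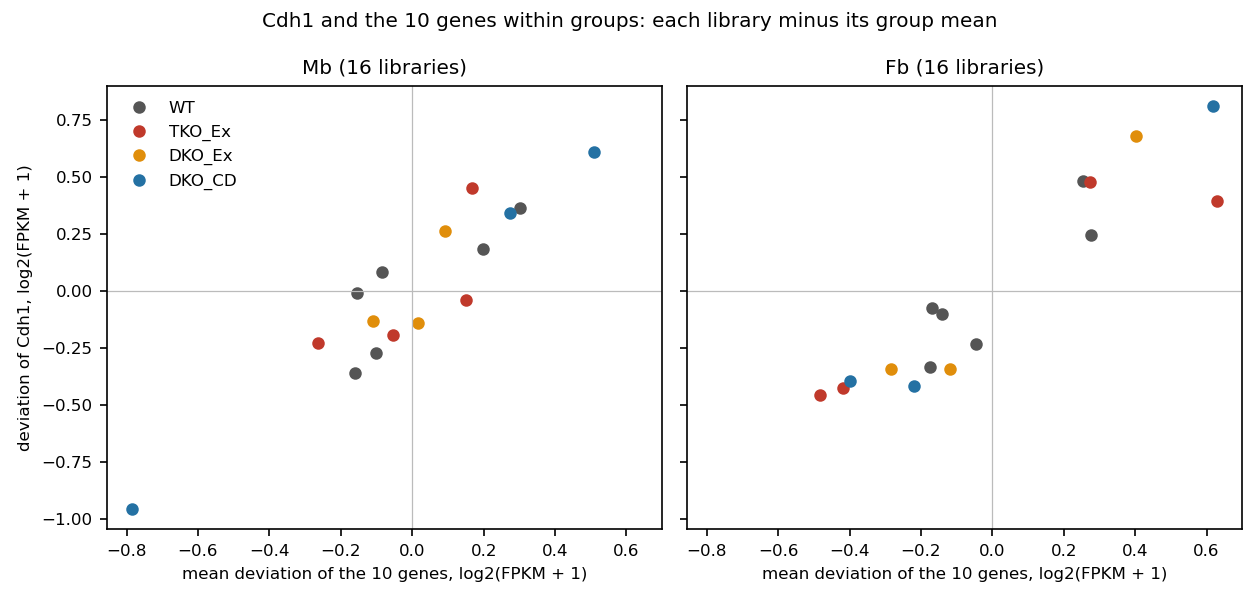
Deviation of Cdh1 from its group mean (vertical) against the mean deviation of the 10 members (horizontal), log2(FPKM + 1), for the 16 Mb and 16 Fb libraries by group. The points follow 1 line in both tissues (r of 0.93 in each), with DKO_CD Fb replicate 2 and TKO_Ex Fb replicate 4 at the upper end and DKO_CD Mb replicate 1 at the lower end.

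Cdh1 itself was at 7.64, 7.45, 15.2 and 14.3 FPKM in TKO_Ex Fb, at 5.49, 12.2 and 5.48 FPKM in DKO_Ex Fb and at 6.34, 16.2 and 6.45 FPKM in DKO_CD Fb, against 5.73 to 10.8 FPKM in WT Fb. The libraries above the WT range were the same 4 as for Epcam and Cldn6. Its log2 difference from WT was 0.45 ± 0.23 in TKO_Ex Fb (limma, adjusted p = 0.62) and -0.04 ± 0.26 in DKO_Ex Fb (limma, adjusted p = 0.98). Of the 24 other epithelial genes, 14 to 18 were tested in a mutant comparison with WT, and none passed. Their median log2 difference was 0.38 over 18 tested in TKO_Ex Fb, 0.09 over 18 in DKO_Ex Fb, 0.20 over 18 in DKO_CD Fb and 0.57 over 17 in DKO_CD Mb, beside medians between -0.01 and 0.04 over all genes. Esrp2 was the farthest from WT, at 2.68 to 5.80 FPKM in DKO_CD Fb against 1.25 to 1.99 FPKM in WT Fb, with a log2 difference of 1.03 ± 0.21 (limma, adjusted p = 0.23). Esrp2 also lies on chromosome 8, starting at 106.13 Mb, between the mutated Cdh11 (102.63 Mb) and Cdh1 (106.60 Mb). The part of this position in its difference was not tested.

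Other cell types moved with these libraries. Summed over the 10 members, Fb ran from 86.7 to 147 FPKM in WT, 129 to 327 in TKO_Ex, 126 to 224 in DKO_Ex and 117 to 301 in DKO_CD, and the sum of the 24 other epithelial genes ran from 89.0 to 182, 121 to 245, 107 to 172 and 101 to 271 FPKM. The placode and oral ectoderm sum was 59.8 to 87.5 FPKM in WT Fb and 83.2 to 153 in TKO_Ex Fb. There 8 of 8 tested genes had a log2 difference above 0 (median 0.52), against 54.2% of all genes, and none passed. The cranial mesenchyme sum of 7 genes was lower in every TKO_Ex Fb and DKO_Ex Fb library (93.9 to 130 and 105 to 121 FPKM) than in WT Fb (141 to 163 FPKM), with 0 of 7 called in each. The endothelial sum was 60.6 FPKM in TKO_Ex Fb replicate 4 and 58.9 in DKO_CD Fb replicate 2, the libraries highest in the members, against 91.5 to 137 FPKM in WT Fb. In DKO_CD Mb the mesenchyme sum was 97.8 to 147 FPKM, against 57.5 to 102 FPKM in WT Mb, with 0 of 7 called. The neural plate sum was 431 to 589 FPKM in WT Fb and 550 to 624, 559 to 610 and 611 to 641 FPKM in the mutants. The part of these cell types in the members' levels was not tested.

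**Figure D5:**
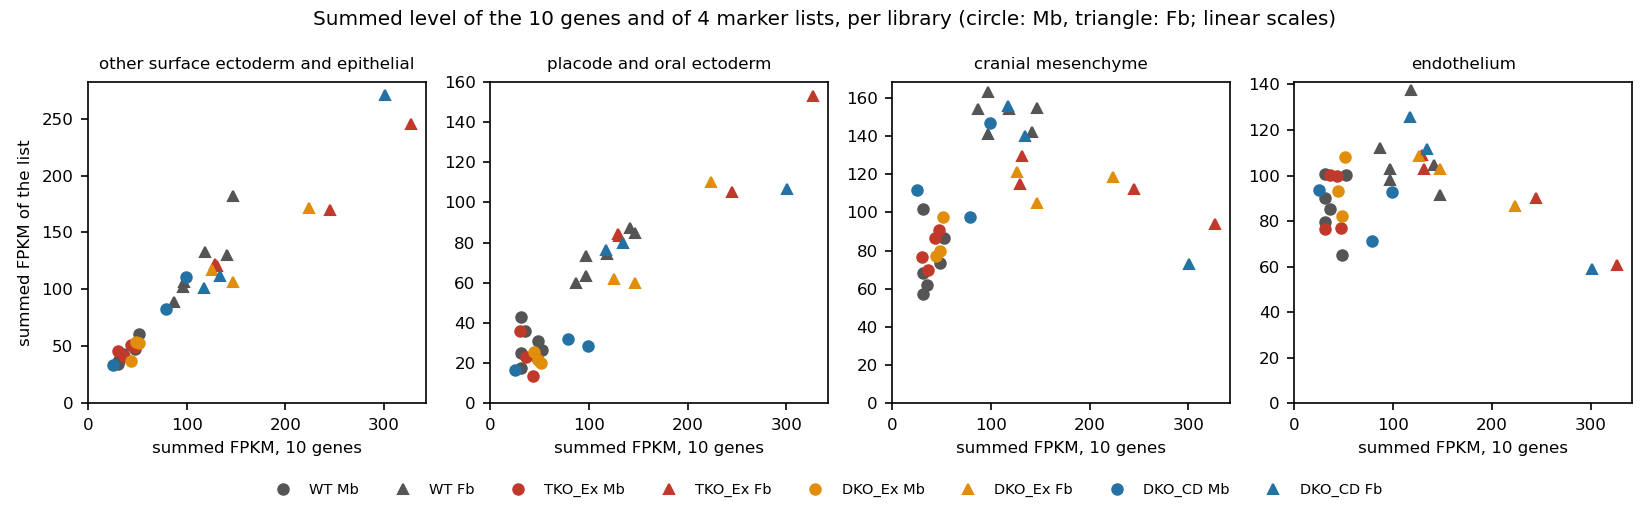
Summed FPKM of 4 marker lists (vertical) against that of the 10 members (horizontal) in every library, circles for Mb and triangles for Fb, coloured by group. In Fb the members' sum reaches 327 FPKM in TKO_Ex and 301 FPKM in DKO_CD, above the WT maximum of 147 FPKM, and the cranial mesenchyme sum of TKO_Ex and DKO_Ex lies below all WT Fb libraries.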

How the data were processed

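Total RNA of dissected Fb and Mb at E9.5 was made into directional libraries and sequenced, and the authors aligned the reads with TopHat2 to GRCm38 and computed FPKM per Ensembl gene with Cufflinks. Versions are not given in the sources used here. The deposited values are FPKM, 1 file per library, with no replicates pooled. The study also tested read counts, which were not analysed here. Rows were matched by Ensembl identifier to GENCODE M21 (48218 of 48576 identifiers), after 65 repeated rows were summed, and promoter windows came from RefSeq.

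FPKM were tested as log2(FPKM + 1) with limma 3.58.1 (R 4.3.3, lmFit and eBayes with trend) over genes averaging 1 FPKM or more across the compared libraries, with Benjamini-Hochberg adjustment over all of them and a threshold of 0.05. A fold change on this scale understates the change of low genes. Only the groups compared entered a fit, and the 12 comparisons were 6 of a mutant group with WT, 3 interactions with tissue, WT Mb with WT Fb, and DKO_Ex with DKO_CD in each tissue. DKO libraries were grouped by column heading. Depth was read from whole-fragment steps of low values: 85.9 to 92.9% of the values used lay within 0.1 of a whole fragment, over 771 genes of at least 4000 bases. That share was too low to recover counts, and no counting interval is given for a level. The fits were tested on simulated data. The labels do not say which libraries came from separate embryos, so p-values measure the spread between these samples.

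The members and lists were chosen with earlier results of these data known. Text names the 10 members, Cdh1, Esrp2, Tfap2c, list genes that passed, up to 2 genes of other lists, the mutated cadherins, and the 10 genes whose deviations were most alike. Levels were compared between genes only as FPKM, which is per length. Alternatives were pseudocounts of 0.1 and 5, no filter, median-of-ratios scaling, all groups in 1 fit, no trend, a replicate block, DKO groups by record, and each library left out. Leaving out together the libraries that stood apart was added after seeing the data. Some genes of the lists are not reported here. Reads of Krt8 can be shared with its pseudogene, and Cldn6 adjoins Cldn9 on the other strand.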

Additional observations from a re-analysis of the deposited data

Results flagged for a closer look

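Of 40 groups of 4 or 6 libraries checked, 3 held a value far from the others by Dixon's criterion at 95%, where chance gives about 2. Grhl2 in WT Fb replicate 1 was 4.29 FPKM on 64 fragments, and the other 5 libraries were at 2.24 to 2.82 FPKM. Krt19 in the same library was 9.85 FPKM on 47 fragments, against 2.98 to 4.59 FPKM. Esrp1 in TKO_Ex Fb replicate 4 was 14 FPKM on 114 fragments, against 6.26 to 7.36 FPKM.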

How the results depend on the processing

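In WT Mb against WT Fb, 6 members passed under every alternative but 1: with no filter, which tests 10 members in place of 7, 8 passed. In the other 11 comparisons 0 members passed under every alternative, with the smallest adjusted p (limma) at 0.15 in TKO_Ex Fb, without replicate 1, where Krt18 had a log2 difference of 1.31. Krt18 kept its direction in Fb throughout, at 0.79 to 1.31 in TKO_Ex, 0.58 to 1.13 in DKO_Ex and 0.39 to 1.15 in DKO_CD. With the replicate block, 6 members passed in WT Mb against WT Fb and 0 elsewhere. Between a mutant group and WT, the block tied same-numbered libraries of different embryos, a pairing with no basis in the design. Under it the number with an unadjusted p under 0.05 in TKO_Ex Fb went from 6 to 1, which is not read as a check of that count. Same-numbered Fb and Mb libraries had deviations correlated at 0.00756 to 0.140 over 16 pairs, 4 of them over 0.1. Not every pair was over 0.1 and the labels tie no number to an embryo, so the numbers were not taken as pairs, although 14 of the 16 correlated best with their own number and all 16 were alike in Xist (above or below 10 FPKM), a hint from the data that they mark an embryo. The count of all genes past the threshold was 8 and ran from 0 to 10 over the alternatives in TKO_Ex Fb. It was 10 and ran from 2 to 14 in DKO_Ex Fb, 5 and 2 to 15 in DKO_CD Fb, 12 and 0 to 52 in TKO_Ex Mb, 12 and 1 to 17 in DKO_Ex Mb, and 5 and 1 to 12 in DKO_CD Mb. For DKO_Ex against DKO_CD it was 6 and 0 to 10 in Mb, and 1 and 0 to 4 in Fb, and for the interactions it was 2 and 0 to 5 (TKO_Ex), 0 and 0 to 1 (DKO_Ex) and 1 and 0 to 5 (DKO_CD). With DKO groups by record, the DKO values exchange, and with the libraries that stood apart left out, added after seeing the data, 2 of 9 members had an unadjusted p under 0.05 in TKO_Ex Fb and 0 of 6 in DKO_CD Mb. Depth limits Grhl1, Grhl3 in Mb and Trp63 in Mb, which rest on at most 15 fragments per library in WT and TKO_Ex. It also limits Trp63 in WT Fb, with 13 to 17 fragments per library, and Esrp1 and Grhl2 in WT Mb, with 1 to 15 and 3 to 12.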

Other observations

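Same-numbered WT libraries had nearly the same mean deviation of the 10 members in both tissues: 0.30 in Mb and 0.28 in Fb for number 1, -0.15 and -0.14 for number 2, 0.20 and 0.25 for number 3, -0.16 and -0.17 for number 4, -0.10 and -0.05 for number 5, and -0.08 and -0.17 for number 6. Numbers 1 and 3 were above 0 in both tissues and the other 4 below it. Over the 6 numbers the Pearson r was 0.97 and the rank correlation 0.66. The likeness rested mostly on numbers 1 and 3: without these 2, the farthest from 0 in Mb, the r was 0.29 over 4 numbers. The labels do not say that a number marks an embryo, and the values in the mutants did not run together in this way: DKO_CD number 2 was high in both tissues, and TKO_Ex number 4 was high in Fb and low in Mb.

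The level of Krt18 against that of Krt8, which are paired in a filament, was described after its values were seen. The ratio of their FPKM in Fb was 0.819 to 1.52 in WT (median 1.07), 1.18 to 1.58 in TKO_Ex (median 1.46), 1.39 to 1.65 in DKO_Ex (median 1.49) and 1.0004 to 1.72 in DKO_CD (median 1.17). The groups overlapped. In Mb the medians were 0.886 in WT, 0.948 in TKO_Ex, 0.886 in DKO_Ex and 0.740 in DKO_CD.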
